A study of Mus musculus with 4 samples.

Results

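The genes described here encode the cytosolic heat shock proteins and their main regulator: Hspa1a, Hspa1b, Hspa8, Hsp90aa1, Hsp90ab1, Hspb1, Hsph1, Dnajb1, Hspa4l and Hsf1. They were chosen by name, as the rows whose gene symbol equals one of these, and all 10 were found in each of the 4 deposited tables, among 18492 genes listed in any of them. Hippocampal RNA came from C57BL/6 mice, 6 months of age, with 1 library for each genotype: wild type (WT), Ogg1-/- (Ogg1 KO), Mutyh-/- (Mutyh KO) and a double knockout (DKO) that one label field writes as Ogg-/- Mutyh-/- and the title as Ogg1 with Mutyh. Ogg1 and Mutyh encode DNA glycosylases, enzymes that act on 8-oxoguanine lesions and on the adenines misplaced opposite them. The animals' sex, their number per sample and the part deleted from each gene are not given in the sources used here. Values follow the order WT, Ogg1 KO, Mutyh KO and DKO, and folds to WT follow the same order of the knockouts. With 1 library per genotype there is no replicate check and no test, and every statement below sets libraries side by side.

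Cytosolic chaperones bind unfolded or partly folded proteins and use cycles of ATP binding to release them for another attempt at folding. In the Hsp70 cycle a DnaJ protein delivers the client and speeds ATP hydrolysis, and a Hsp110 protein exchanges the nucleotide. Hsp90 acts later, on clients such as kinases and steroid hormone receptors. HSF1 is the transcription factor that switches the inducible members on, by binding repeats of the short unit GAA in alternating orientation, the heat shock element. In brain, neurons keep the constitutive members high at rest.

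The regulatory sequences of the inducible Hsp70 pair are shown first, because the 2 genes are nearly identical before their start and over the coding sequence while their read counts differ. Of the 10 genes, 6 matched by symbol in the RefSeq promoter table (GRCm38.p6), which is another build than the mm9 named for these libraries, so its coordinates serve only to place the sequences. Below are the 150 bases before the start of Hspa1a (chr17:34972157-34972306, minus strand), Hspa1b (chr17:34959239-34959388, minus strand) and Hspb1 (chr5:135887769-135887918, plus strand), and 30 bases of Hsph1 (chr5:149636352-149636381, minus strand) that end 16 bases before its start. Capitals mark a pair of facing heat shock units, GAANNTTC or TTCNNGAA, each of which reads the same on both strands.
Hspa1a: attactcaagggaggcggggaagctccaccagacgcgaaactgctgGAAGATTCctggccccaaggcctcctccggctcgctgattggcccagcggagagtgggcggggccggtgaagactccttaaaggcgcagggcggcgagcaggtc
Hspa1b: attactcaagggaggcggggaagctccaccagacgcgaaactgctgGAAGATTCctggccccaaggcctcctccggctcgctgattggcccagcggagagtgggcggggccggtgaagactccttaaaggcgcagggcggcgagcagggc
Hspb1: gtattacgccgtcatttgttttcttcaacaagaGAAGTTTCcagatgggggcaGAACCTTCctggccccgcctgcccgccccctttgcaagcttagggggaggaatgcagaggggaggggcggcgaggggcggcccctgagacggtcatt
Hsph1: tgggtagaatctTTCTCGAAggctcgagaa

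Hspa1a and Hspa1b differed at 3 of the 250 bases before the start (98.8% identity), at C207T, T204C and T2G, written as the Hspa1a base, its distance upstream of the start and the Hspa1b base. Both carried GAAGATTC at 104 to 97 bases upstream. Hspb1, which encodes the small heat shock protein Hsp27, carried GAAGTTTC at 117 to 110 bases and GAACCTTC at 97 to 90 bases. Hsph1, the Hsp110 gene, carried TTCTCGAA at 33 to 26 bases. Over the 250-base windows, 4 of the 6 matched genes held at least 1 such pair, against 12.8% of 32851 windows in the table, and the pair of Hsp70 genes enters that count with nearly the same sequence. The windows of Dnajb1, a DnaJ partner of Hsp70, and Hspa4l, a Hsp110 relative, held none. All starts here are those of the RefSeq table. In another annotation (GENCODE M21) Hspa4l starts at chr3:40744495, before its window of 40745363 to 40745612. Hsph1 there starts at chr5:149636376 on the minus strand. The Hspa4l window and the Hsph1 match thus lie inside those annotated genes. For Dnajb1 and Hsph1, with 2 annotated starts each, only the window of the most 5′ start was searched, while the share of all windows counts every start. The longer form, in which the next unit follows such a pair after any 2 bases to make 3 units, was in 0 of the 6 windows and in 0.466% of all windows. A match describes letters in a window and is not evidence of binding.

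The libraries held 17.0 to 18.2 M unique reads in genes. Ogg1 had 94 reads in WT, and 130, 81 and 103 in the Ogg1 KO, Mutyh KO and DKO libraries, so its total runs against the labels Ogg1 KO and DKO, although reads covered 86.7% and 81.5% of its length in WT and Mutyh KO and 47.2% and 46.4% in Ogg1 KO and DKO. Mutyh had 39, 35, 15 and 20 reads in the same order, fewest in the libraries labelled as lacking it. Xist, the RNA of the inactive X chromosome, had 10307 reads in Mutyh KO and 14 to 29 in the others, and for that library sex and genotype cannot be told apart. All 10 markers of hippocampal neurons and all 8 of dentate granule cells were above the filter of a mean of 1 RPKM. Ogg1 KO, Mutyh KO and DKO name libraries by their labels throughout, and every direction given for them rests on those labels.

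All 10 heat shock genes had their highest level in the WT library, whereas 25.9% of the 13186 genes compared (mean of at least 1 RPKM, reads scaled to gene length and library total) were highest there. None of the 10 was lowest in WT, where 30.7% of all genes were. All 10 passed that filter. Together they took 0.599% of the WT reads (95% exact binomial interval 0.595 to 0.602), and 0.513%, 0.517% and 0.520% in the Ogg1 KO, Mutyh KO and DKO libraries. The 3 knockout libraries thus lay close to each other, and WT apart. The lowest library was Ogg1 KO for 2 of the 10 genes (24.3% of all genes), Mutyh KO for 3 (20.3%) and DKO for 5 (24.7%), so the low values were spread over the knockout libraries. The sum mostly reflects Hspa8, Hsp90ab1 and Hsp90aa1, which held 89.5% to 90.8% of these reads. Because each knockout is set against the same WT library, lower values in all of them are not independent of each other.

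**Figure D1:**
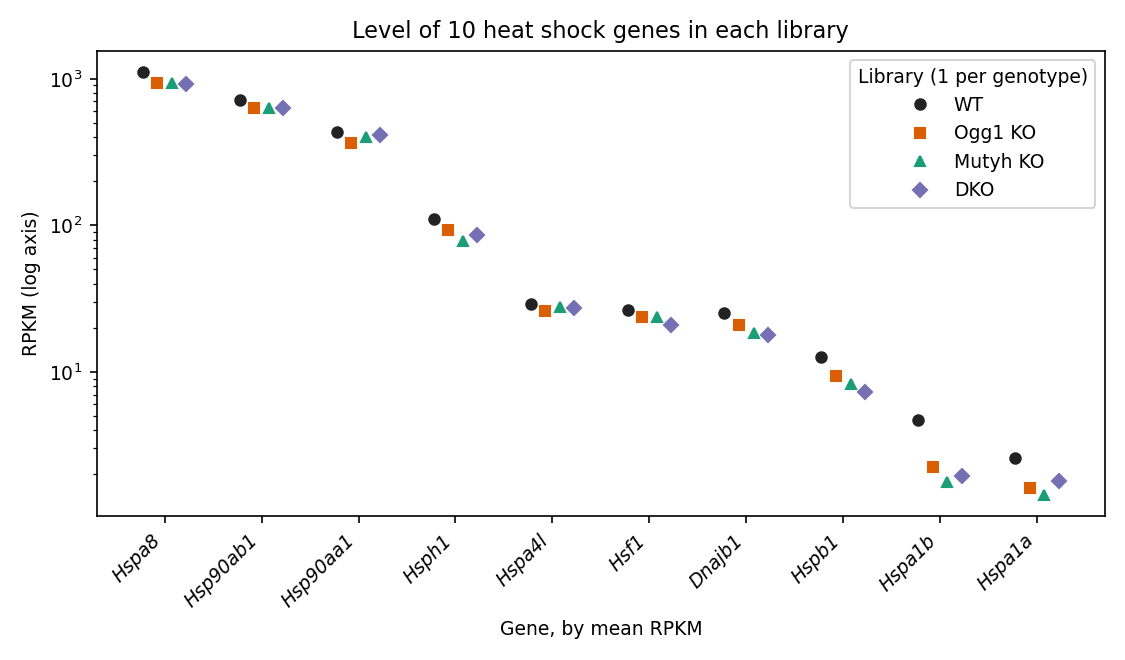
Level of each heat shock gene (RPKM, log axis) in the 4 libraries, 1 point per library, with genes in order of their mean. The black WT circle is the highest of the 4 points for all 10 genes, and levels run from 1113 RPKM for Hspa8 in WT down to 1.44 RPKM for Hspa1a in Mutyh KO.

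Levels per length spanned a wide range. Mean levels over the 4 libraries were 978 RPKM for Hspa8, 651 for Hsp90ab1, 403 for Hsp90aa1 and 91.6 for Hsph1. Hspa4l, Hsf1 and Dnajb1 followed at 27.5, 23.8 and 20.6 RPKM, and the ranges of neighbours in this order overlapped over the libraries. Hspb1 had a mean of 9.42 RPKM, Hspa1b of 2.67 and Hspa1a of 1.85, and the ranges of the last pair also overlapped. All 10 genes nevertheless kept the same order within each library.

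Each fold below divides a library's reads per total by those of the WT library, with an exact conditional 95% interval that covers counting error only. In Ogg1 KO the intervals of 10 of 10 genes lay below 1, which was so for 16.2% of all genes compared. In Mutyh KO and DKO it was 9 of 10, with 16.4% and 17.2% of all genes, and Hspa4l was the exception in both. Whether an interval excludes 1 depends on read number as well as on the fold. The shares of all genes given beside such counts, here and below, are not matched for read number. By any amount, all 10 were lower in each knockout library (45.4%, 47% and 50.7% of all genes). On the scale of RPKM + 1, 3 genes were at least 20% lower in Ogg1 KO (3.57% of all genes), 5 in Mutyh KO (1.92%) and 6 in DKO (2.55%). The genes Hspa1a, Hspa1b and Hspb1 passed this limit in all 3 libraries, as did 0.326% of all genes. At 1.5-fold the counts were 1, 1 and 2 of 10, against 0.66%, 0.174% and 0.394% of all genes, so most differences were small on this scale. Adding 1 RPKM shrinks the differences of low genes. By reads alone, Hspa1a was at 0.630-fold in Ogg1 KO and 0.561-fold in Mutyh KO, and Hspb1 at 0.654-fold in Mutyh KO. These are also beyond 1.5-fold. No heat shock gene was at least 25% higher in any of the 3, where 6.87%, 8.24% and 5.87% of all genes were.

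**Figure D2:**
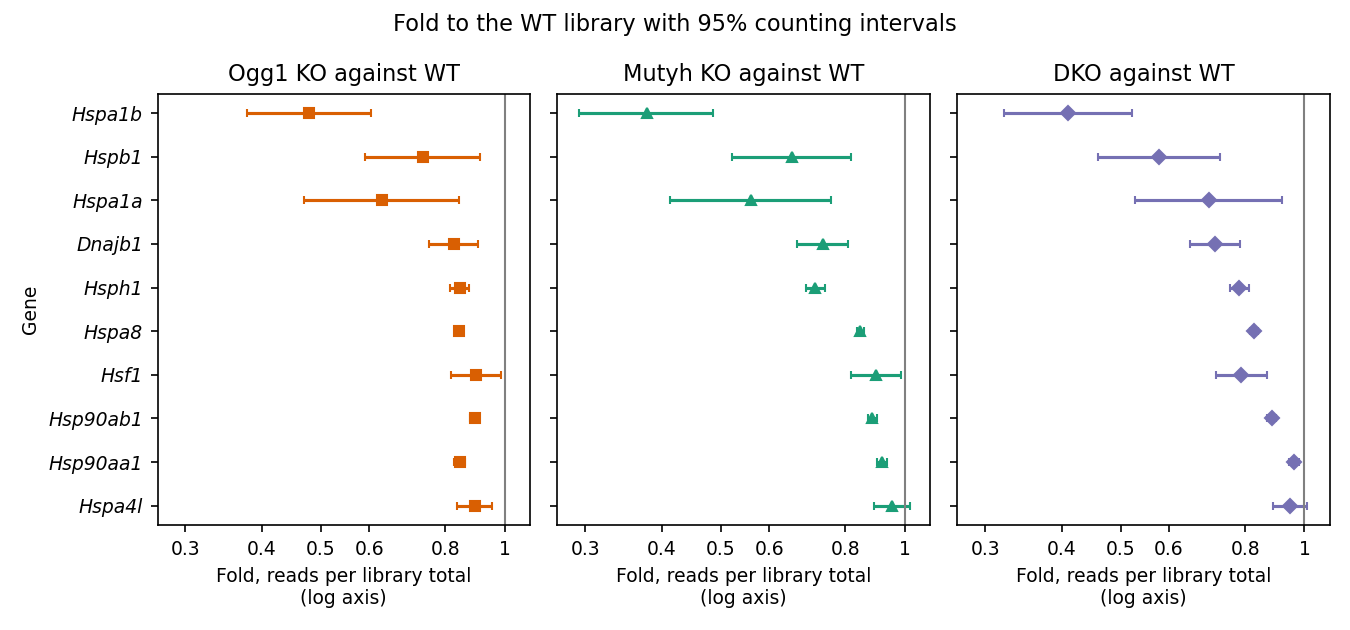
Fold of each heat shock gene to the WT library (reads per library total, log axis) with exact 95% intervals for counting error, 1 panel per knockout library. Every point lies left of 1, Hspa1b is furthest left in each panel, and only the Hspa4l intervals in Mutyh KO and DKO reach past 1.

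Of the 10 genes, Hspa1b, an inducible Hsp70, was furthest from WT in each knockout library. Hspa1b (gene ID 15511) had 240 reads (4.71 RPKM) in WT, and 108 (2.26 RPKM), 86 (1.78 RPKM) and 99 (1.94 RPKM) in the Ogg1 KO, Mutyh KO and DKO libraries. WT was 2.09 times the next highest library, and the 3 knockouts lay within each other's counting error. The folds were 0.479 (0.378 to 0.603), 0.379 (0.292 to 0.486) and 0.411 (0.322 to 0.521) in the Ogg1 KO, Mutyh KO and DKO libraries. Hspa1a (gene ID 193740) had 130, 77, 69 and 91 reads in the same order, or 2.56, 1.62, 1.44 and 1.79 RPKM. Its folds of 0.630 (0.469 to 0.842), 0.561 (0.413 to 0.757) and 0.697 (0.527 to 0.918) were nearer to 1 than those of Hspa1b in each library.

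The 2 genes encode nearly the same protein from neighbouring loci. The file headers call the counts uniquely assigned reads, and what was done with reads matching both genes is not stated further. Their annotated transcripts (GENCODE M21, GRCm38) shared 99.4% identity over the coding sequence and 98.7% over the 5′ untranslated region, but 47.3% over the 3′ untranslated region and 84.3% over the whole transcript, with gaps counted as differences. Of all 50-base words of the Hspa1a transcript, 41.2% did not occur in Hspa1b, and 37.7% the other way round (the read length is not given in the sources used here; 50 bases was set for this description). The covered part of the deposited gene length was 33.5% to 47.4% for Hspa1a and 39.5% to 45.7% for Hspa1b. Other genes of similar length and read number (either ratio no lower than 0.8) had median coverages of 60.6% to 77.5% and 66.8% to 89.6%. The other 8 members were covered over 88.0% to 99.95% of their length. RPKM divides by the full length for all of them. If reads matching both genes were left out, the RPKM of the pair, and its place at the low end of the order, would be understated.

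Summed over the counted reads, which leaves aside how these were split, the pair had 370 reads in WT. It had 185, 155 and 190 in the Ogg1 KO, Mutyh KO and DKO libraries. The summed folds were 0.532 (0.444 to 0.637), 0.443 (0.365 to 0.535) and 0.511 (0.427 to 0.610). Hspa1b made up 64.9% of the pair's reads in WT (exact binomial interval 59.8 to 69.7), 58.4% in Ogg1 KO (50.9 to 65.6), 55.5% in Mutyh KO (47.3 to 63.5) and 52.1% in DKO (44.8 to 59.4). The share was highest in WT, and the intervals of WT and DKO do not overlap while those of WT and both single knockouts do. This share compares reads within a library and does not depend on how libraries are scaled. Hspa1l, a testis-enriched Hsp70 gene beside Hspa1a with 82.9% identity to it over the coding sequence, was not low in all of them, at 0.735-fold (0.580 to 0.931), 0.902-fold (0.722 to 1.13) and 1.02-fold (0.828 to 1.26). Gm20481, on the other strand, shares exon bases with Hspa1a in the annotation, and strand was not given for these counts, so reads of the 2 cannot be told apart.

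**Figure D3:**
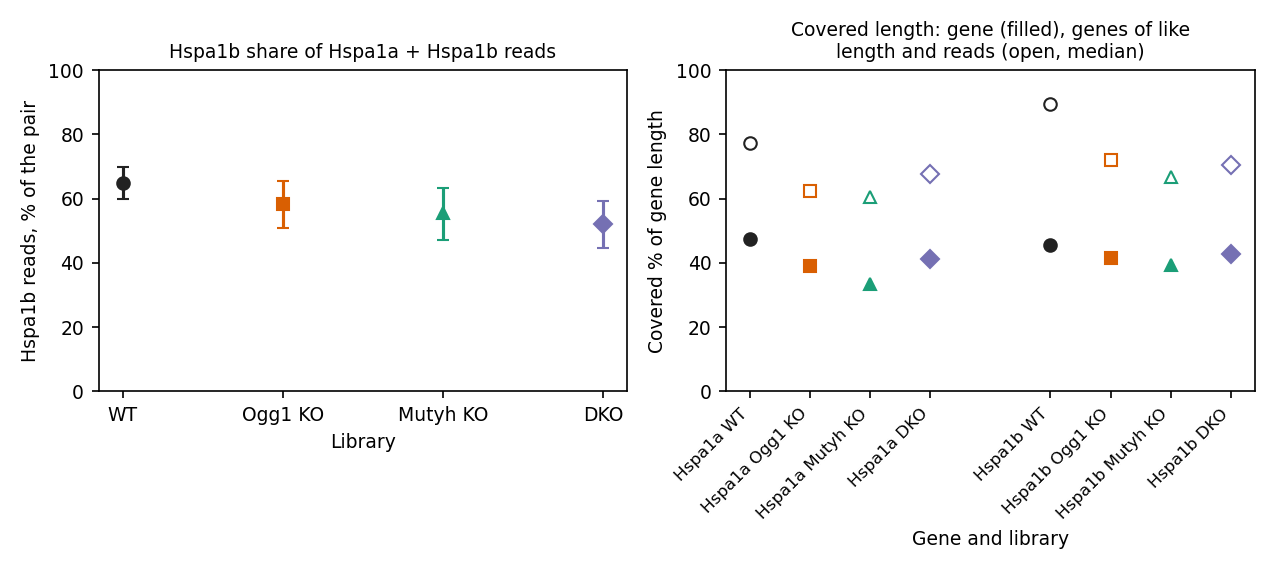
Left, Hspa1b reads as a percent of Hspa1a and Hspa1b reads in each library with exact 95% binomial intervals, 64.9% in WT and 52.1% in DKO. Right, percent of the gene length covered by reads for both genes (filled) and the median of genes of like length and read number (open), which is higher in all 8 pairs.

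The constitutive Hsp70 gene Hspa8 (gene ID 15481), whose protein Hsc70 also strips clathrin from synaptic vesicles, had 1113 RPKM in WT, and 936, 942 and 921 in the Ogg1 KO, Mutyh KO and DKO libraries. The folds of 0.840 (0.828 to 0.853), 0.846 (0.834 to 0.858) and 0.827 (0.816 to 0.839) came from 33518 to 42445 reads per library. With the exons of all its annotated transcripts pooled, it shares bases with small nucleolar RNA genes (Snord14c, Snord14d and Snord14e). Whether these lie in exons of the coding transcript was not checked. WT stood above all 3 knockouts, which lay close together. DKO was at 0.984-fold of Ogg1 KO (0.970 to 0.999).

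Hsp90ab1 (gene ID 15516), the constitutive cytosolic Hsp90, was at 711, 635, 630 and 628 RPKM in the order WT, Ogg1 KO, Mutyh KO and DKO. Its folds were 0.893 (0.878 to 0.907), 0.886 (0.872 to 0.900) and 0.883 (0.869 to 0.898). Hsp90aa1 (gene ID 15519), the stress-inducible Hsp90, was at 433, 366, 398 and 416 RPKM. Here the knockouts were spread, with folds of 0.844 (0.827 to 0.861), 0.919 (0.902 to 0.937) and 0.962 (0.944 to 0.980), and DKO lay nearest to WT. The RPKM ratio of Hsp90aa1 to Hsp90ab1 was 0.609 in WT, and 0.576, 0.632 and 0.663 in the Ogg1 KO, Mutyh KO and DKO libraries, so the WT library lay between the knockouts in this ratio. No 50-base word was shared between the transcripts of these 2 genes.

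Hspb1 (gene ID 15507), whose small heat shock protein holds unfolded clients without using ATP, had 210 reads (12.7 RPKM) in WT, and 145 (9.33 RPKM), 130 (8.30 RPKM) and 122 (7.34 RPKM) in the Ogg1 KO, Mutyh KO and DKO libraries. The folds were 0.735 (0.591 to 0.912), 0.654 (0.522 to 0.818) and 0.578 (0.459 to 0.726). The WT library was highest, and the interval of DKO against Ogg1 KO (0.787-fold, 0.613 to 1.01) included 1.

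Among the Hsp70 partners, Dnajb1 (gene ID 81489), the main stress-inducible DnaJ protein, had 25.2 RPKM in WT, and 20.8, 18.5 and 18.0 in the Ogg1 KO, Mutyh KO and DKO libraries. Its folds were 0.825 (0.752 to 0.905), 0.734 (0.667 to 0.808) and 0.714 (0.649 to 0.785). Hsph1 (gene ID 15505), the nucleotide exchange factor Hsp105, had 110 RPKM in WT, and 92.6, 78.4 and 85.8 in the Ogg1 KO, Mutyh KO and DKO libraries. Mutyh KO was lowest for Hsph1 (0.715-fold, 0.688 to 0.742), below DKO (0.782-fold, 0.754 to 0.810) and Ogg1 KO (0.844-fold, 0.814 to 0.875), and these 3 intervals do not overlap. Hspa4l (gene ID 18415), a further Hsp110 protein, was nearest to WT of the exchange factors, at 29.0, 25.9, 27.7 and 27.5 RPKM. Only its Ogg1 KO interval lay below 1 (0.893-fold, 0.834 to 0.955), while those of Mutyh KO (0.954-fold, 0.893 to 1.02) and DKO (0.947-fold, 0.887 to 1.01) included it.

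Hsf1 (gene ID 15499) itself had 26.5 RPKM in WT, and 23.8, 23.8 and 20.9 in the Ogg1 KO, Mutyh KO and DKO libraries. The single knockouts were alike at 0.899-fold, with intervals of 0.818 to 0.987 in both, and DKO was at 0.788-fold (0.716 to 0.867). DKO was below each single knockout, at 0.877-fold of Ogg1 KO (0.794 to 0.969) and 0.877-fold of Mutyh KO (0.794 to 0.969). HSF1 activity is set mainly on the protein, which these data do not measure.

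The median log2 ratio of the 10 genes to WT was -0.25, -0.33 and -0.34 in the Ogg1 KO, Mutyh KO and DKO libraries, where the median of all genes was 0.02, 0.01 and -0.00. Hspa1b was the lowest gene in each, at -0.81, -1.04 and -0.96. The nearest to WT was Hsf1 in Ogg1 KO (-0.15), Hspa4l in Mutyh KO (-0.07) and Hsp90aa1 in DKO (-0.06).

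**Figure D4:**
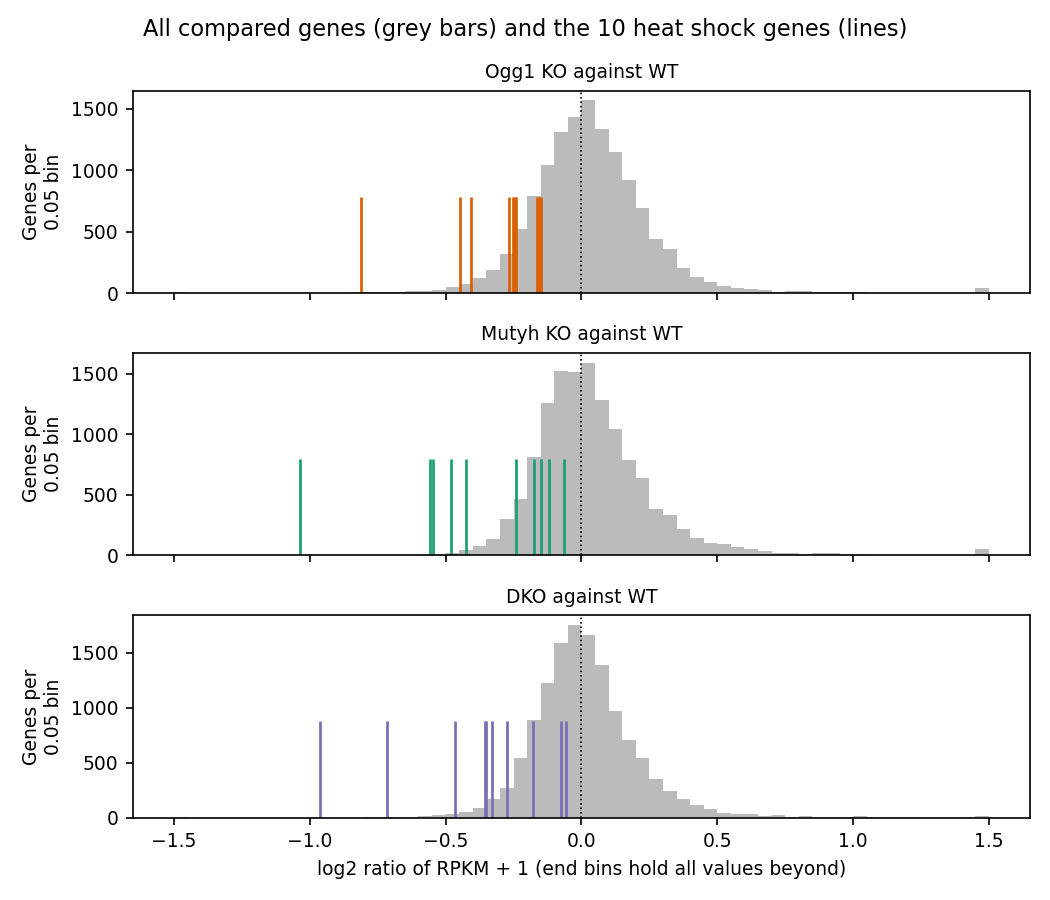
Distribution of log2 ratios of RPKM + 1 to WT over all 13186 genes compared (grey bars, bins of 0.05, end bins holding all values beyond) with the 10 heat shock genes as coloured lines, 1 panel per knockout library. All lines lie left of 0, with Hspa1b at -0.81, -1.04 and -0.96.

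Between knockout libraries none of the 10 genes passed the same limits, which is near the low shares of all genes given beside. In DKO against Ogg1 KO 0 of 10 were at least 20% lower (4.88% of all genes) and 0 at least 25% higher (3.66%), 7 were lower by any amount (54.1%), with a median log2 ratio of -0.07. In DKO against Mutyh KO 0 were lower (4.14%) and 0 higher (1.22%) by these limits and 6 lower by any amount (54.7%), with a median of -0.01. In Mutyh KO against Ogg1 KO 0 were lower (3.06%) and 0 higher (4.8%) by these limits and 6 lower by any amount (49.2%), with a median of -0.06. Summed over the 10 genes, DKO was at 1.013-fold of Ogg1 KO (1.003 to 1.022) and 1.004-fold of Mutyh KO (0.995 to 1.013). Some genes still differed beyond counting error. In DKO against Ogg1 KO the interval lay below 1 for Hspa8, Hsph1, Dnajb1 and Hsf1 (4 of 10; 19.8% of all genes) and above 1 for Hsp90aa1 (1 of 10; 14.1%). In DKO against Mutyh KO it lay below 1 for Hspa8 and Hsf1 (2 of 10; 13.4%) and above 1 for Hsp90aa1 and Hsph1 (2 of 10; 9.79%). In Mutyh KO against Ogg1 KO it lay below 1 for Hsph1 and Dnajb1 (2 of 10; 16.1%) and above 1 for Hsp90aa1 (1 of 10; 15.4%). Hsph1 was at 0.847-fold of Ogg1 KO in Mutyh KO (0.814 to 0.881), and Dnajb1 was at 0.866-fold of Ogg1 KO in DKO (0.783 to 0.957). Without the 3 most abundant genes, the summed reads of the other 7 were at 0.843-fold of WT (0.820 to 0.866), 0.762-fold (0.740 to 0.784) and 0.791-fold (0.769 to 0.813). Between the knockouts, this sum was at 0.938-fold of Ogg1 KO in DKO (0.911 to 0.966) and 0.904-fold of Ogg1 KO in Mutyh KO (0.877 to 0.931). It was at 1.04-fold of Mutyh KO in DKO (1.01 to 1.07).

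Other genes of the cytosolic chaperone network leaned the same way by less. Over 52 further genes compared, 38, 43 and 37 were below WT in the Ogg1 KO, Mutyh KO and DKO libraries, where 45.4%, 47% and 50.7% of all genes were below. Of these, 7, 2 and 5 were at least 20% lower and 29 of 52 were highest in WT. The median log2 ratios were -0.11, -0.11 and -0.07.

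Within that network, the partners of Hsp90 stood nearest to the 10 genes. Of 11 Hsp90 co-chaperone genes, 10, 11 and 10 were below WT, 5, 1 and 3 by at least 20%, and 9 were highest in WT. Fkbp4, an immunophilin of steroid receptor complexes, had 55.1 RPKM in WT, and 40.6, 41.7 and 38.0 in the Ogg1 KO, Mutyh KO and DKO libraries. Its folds were 0.737 (0.689 to 0.787), 0.757 (0.708 to 0.808) and 0.689 (0.645 to 0.737). Chordc1, a Hsp90-binding protein, was at 0.772-fold, 0.821-fold and 0.789-fold, and Unc45a, a myosin chaperone, lay above WT in Ogg1 KO at 1.19-fold (1.06 to 1.34). All 11 of these genes passed the filter.

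The CCT chaperonin, the ring that folds actin and tubulin, had 7 of 8 subunit genes below WT in each knockout library and 0 by 20%, with Cct7 at 0.873-fold, 0.812-fold and 0.916-fold. Of 11 further DnaJ genes, 9, 9 and 7 were below WT and 0 by 20%. Dnaja1, a Hsp70 partner, was at 0.853-fold, 0.837-fold and 0.899-fold. Dnajb14, a membrane-bound DnaJ protein, lay the other way at 1.18-fold (0.983 to 1.41), 1.41-fold (1.19 to 1.67) and 1.79-fold (1.53 to 2.11). Of 8 Hsp70 exchange and adaptor genes, 5, 6 and 5 were below WT. Hspbp1 was at 0.793-fold, 0.819-fold and 0.880-fold, and the inducible Bag3, an adaptor of selective autophagy, at 1.08-fold (0.918 to 1.27), 1.16-fold (0.991 to 1.36) and 1.09-fold (0.928 to 1.27).

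Of 7 further Hsp70 genes, 5, 6 and 4 were below WT, among them Hspa2 at 0.891-fold, 0.882-fold and 0.907-fold. Of 4 other small heat shock genes above the filter (4 of 8 were not), 2, 1 and 3 were below WT. Cryab, alpha-B crystallin, was at 0.892-fold, 0.926-fold and 0.778-fold. Of the 3 other Hsf genes compared, 0, 3 and 1 were below WT, with Hsf2 at 1.07-fold (0.935 to 1.22), 0.943-fold (0.823 to 1.08) and 1.01-fold (0.888 to 1.16). Mitochondrial chaperones had 6, 7 and 7 of 10 genes below WT and 0 by 20%, with Hspd1, the mitochondrial Hsp60, at 0.807-fold, 0.860-fold and 0.894-fold.

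Genes on a list of endoplasmic reticulum chaperones, which respond to a different pathway, were low to a like degree. The list also holds the transcription factors Ddit3, Xbp1 and Atf4, and Herpud1, which are not chaperones. Of 18 genes, 16, 16 and 17 were below WT, 7, 7 and 8 by at least 20%, and 15 were highest in WT. Their median log2 ratios were -0.26, -0.22 and -0.29. Hspa5, the Hsp70 of that compartment, was at 119, 79.1, 85.0 and 81.3 RPKM in the order WT, Ogg1 KO, Mutyh KO and DKO. The pattern of a high WT library was therefore shared with genes of that list, among them the chaperone gene Hspa5, and no test of a difference between the lists was made.

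**Figure D5:**
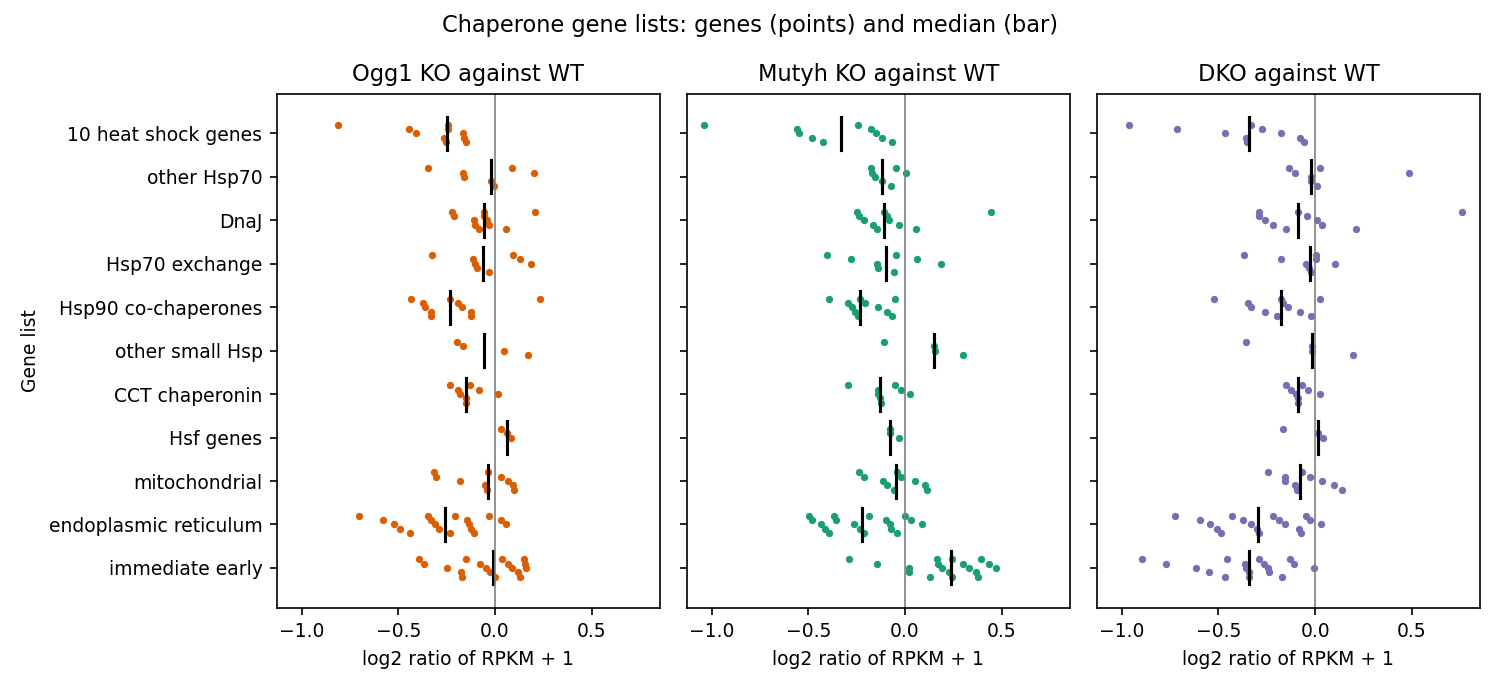
log2 ratios of RPKM + 1 to WT for single genes (points) and the median (black bar) of each chaperone list and of immediate early genes, 1 panel per knockout library. The medians of the 10 heat shock genes, the Hsp90 co-chaperones and the endoplasmic reticulum list lie left of 0 in all 3 panels. So do those of the other Hsp70, DnaJ, Hsp70 exchange, CCT chaperonin and mitochondrial lists, by less. Those of the other small Hsp and Hsf lists lie on both sides of 0. That of immediate early genes is -0.01, 0.23 and -0.34.

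Genes with the closest pattern were sought among 6567 other genes with a mean of at least 10 RPKM, by the Euclidean distance over the 3 log2 ratios to WT. For Hspa1b the nearest were 1110001J03Rik (distance 0.56), Mir3078 (0.70), Tmem254a (0.71), Hspa5 (0.73) and Cfp (0.82), so none of the genes searched lay close. Hspa1b itself, at a mean of 2.67 RPKM, is below the limit of this search, and genes at its level were not searched. For the median of the 10 genes the nearest were Jun, Klhl29, Gatsl2, Fam171a2 and Cib2, at distances of 0.05 to 0.07. Jun, an AP-1 subunit and immediate early gene, was at 0.838-fold (0.790 to 0.889), 0.815-fold (0.768 to 0.865) and 0.775-fold (0.730 to 0.822).

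The promoter letters were next set against the levels of all genes with a promoter entry. The 1230 other compared genes with a pair of facing units had median log2 ratios of 0.01, 0.01 and -0.01, and 9206 genes with none had 0.02, 0.01 and -0.00. Of those with a pair, 2.68%, 1.22% and 1.71% were at least 20% lower than WT, against 3.37%, 1.81% and 2.43% of those with none. The 47 with 3 units had median log2 ratios of 0.00, -0.04 and -0.03, and 0 of them were at least 20% lower in any of the 3 libraries. With so few genes, 0 is near the low shares of the other classes.

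Markers of some other cells also separated WT from the knockouts, and those of others did not. All 12 choroid plexus genes were above WT in each knockout library, with a summed level of 261 RPKM in WT, and 2931, 2874 and 1474 in the Ogg1 KO, Mutyh KO and DKO libraries, and none was at 0. All 5 blood genes compared were also above WT in each, with summed levels of 55.5, 113, 190 and 85.3 RPKM. Of 8 meningeal genes, 6, 8 and 8 were above WT (75.2, 143, 195 and 139 RPKM summed). Of 10 hippocampal neuron genes, 7, 9 and 6 were below WT (2151, 1987, 1916 and 1988 RPKM summed). The oligodendrocyte and endothelial lists leaned above WT, with 7, 8 and 6 of 8 and 6, 7 and 6 of 8 genes. The remaining lists did not follow the split: below WT were 8, 4 and 4 of 8 dentate granule genes, 7, 4 and 2 of 8 microglial genes, 4, 3 and 3 of 8 astrocyte genes and 1, 0 and 4 of 7 ependymal genes. Ribosomal RNA genes took 0.733% of reads in WT, and 0.351%, 1.37% and 1.48% in the Ogg1 KO, Mutyh KO and DKO libraries, so WT lay between the knockouts. With ribosomal RNA, choroid plexus and blood genes taken out of the library totals, 3, 5 and 5 of the 10 genes were at least 20% lower (3.55%, 1.66% and 2.31% of all genes) and all 10 were highest in WT (24% of all genes). This step only rescaled the knockout libraries against WT, by 0.999, 0.989 and 0.990. It cannot address a changed mix of cells. The part of tissue composition in these differences was not tested. Fewer cells of a type and less RNA per cell cannot be told apart in bulk tissue.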

How the data were processed

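Hippocampal RNA was sequenced in 4 libraries, 1 per genotype. Each deposited table gives 4 values per gene. Per the file headers, the first is the authors' count of uniquely assigned reads. Coverage is the percent of gene length covered by reads, deposited by the authors; this meaning was taken from the column name. RPKM, per the file headers, was deposited by the authors and equalled reads over length and over the library total in the header. Gene length in bases was also deposited. Per the submitters' processing notes the build was mm9. The aligner, counting program, annotation and strandedness are not given in the sources used here.

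Genes not listed in a library were taken as 0. Genes with a mean of at least 1 RPKM were compared (13186), as log2 ratios after adding 1 RPKM, which understates differences of low genes. Folds are ratios of reads per library total with exact conditional 95% intervals, and shares have exact binomial (Clopper-Pearson) intervals. Both cover counting error only. Calculations used Python 3.11.15, numpy 2.4.6, pandas 2.3.3 and scipy 1.17.1, and were tested on simulated data. Named beyond the 10 genes were those furthest below or above WT in each list, at most 2 on each side, and Hspa1l. For Hspa1b and for the median of the 10 genes, the 5 nearest genes of at least 10 RPKM were named. The genes and lists were chosen with earlier results of these data known. The alternatives tried were 3 other scalings, a pseudocount of 0.1 RPKM, no filter, a 1.5-fold limit and the Hsp70 pair as 1 gene.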

Additional observations from a re-analysis of the deposited data

Results flagged for a closer look

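Loss of 1 glycosylase gene went with opposite differences in 2 heat shock genes depending on whether the other gene was present, each beyond counting error. Hsp90aa1 was at 0.844-fold in Ogg1 KO against WT but at 1.05-fold (1.03 to 1.07) in DKO against Mutyh KO. The same gene was at 0.919-fold in Mutyh KO against WT but at 1.14-fold (1.12 to 1.16) in DKO against Ogg1 KO. Both Hsp90aa1 comparisons rest on the same libraries and are not independent of each other. Hsph1 was at 0.844-fold in Ogg1 KO against WT and at 1.09-fold (1.05 to 1.14) in DKO against Mutyh KO. Opposite differences in either order were seen for Ogg1 loss in 2 of the 10 genes and 7.85% of all 13186 genes compared. For Mutyh loss it was 1 of the 10 and 7.57%. The heat shock genes were all lower against WT and higher in DKO against the other single knockout. That order was seen in 3% of all genes for Ogg1 loss and 3.24% for Mutyh loss. The count for Mutyh loss is near the share for either order, and both counts are small. With 1 library per genotype these differences between backgrounds were not tested. Each uses the Mutyh KO library, the only one with high Xist (10307 reads), so sex and genotype cannot be told apart in them.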

How the results depend on the processing

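The choice of limit changed the counts most. On the scale of RPKM + 1, the 1.5-fold limit gave 1, 1 and 2 genes lower than WT. These are for the Ogg1 KO, Mutyh KO and DKO libraries (0.66%, 0.174% and 0.394% of all genes). A pseudocount of 0.1 RPKM gave 1 gene at least 20% lower in DKO against Ogg1 KO (7.17% of all genes) and 1 in Mutyh KO against Ogg1 KO (4.58%), where the pseudocount of 1 RPKM gave 0. Under the 3 other scalings, all 90 folds of the 10 genes to WT stayed below 1, and 8 of them left their counting interval (Hspa8, Hsp90aa1 and Hsp90ab1, whose intervals are narrow). No other count or median of the 10 genes left its range. The range was 1.5 times for a count and, for a median, the median counting error of the single genes, which is wide for a median. With the Hsp70 pair as 1 gene, 2, 4 and 5 of 9 genes were at least 20% lower than WT (3.56%, 1.91% and 2.54% of all genes). The medians were then -0.24, -0.24 and -0.33. Leaving out a knockout library, an alternative chosen after seeing the data, left WT highest for 10 of 10 genes by construction and says nothing of stability. No paired analysis was possible because each genotype has 1 library. Depth limits Hspa1a, Hspa1b and Hspb1, which had 69 to 240 reads per library where the other 7 genes had at least 723.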

Other observations

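Both cold-inducible RNA-binding protein genes on the list of other stress genes were above WT. Cirbp had 19.3 RPKM in WT, and 20.5, 26.2 and 29.8 in the Ogg1 KO, Mutyh KO and DKO libraries, or 1.06-fold (0.928 to 1.21), 1.36-fold (1.20 to 1.54) and 1.54-fold (1.37 to 1.74). Rbm3 had 14.8, 20.3, 16.9 and 18.2 RPKM, or 1.37-fold (1.249 to 1.51), 1.15-fold (1.04 to 1.27) and 1.24-fold (1.12 to 1.36). WT was thus the lowest library for both, as it was the highest for all 10 heat shock genes, while the order of the knockouts differed between the 2. Of the 9 genes compared on that list, 3, 3 and 6 were below WT.

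Immediate early genes, induced within minutes when neurons fire, did not share the split of WT from the knockouts. Of 18 genes, 9, 2 and 18 were below WT in the Ogg1 KO, Mutyh KO and DKO libraries, and 1 was highest in WT. Npas4, an activity-dependent transcription factor, was at 0.728-fold (0.626 to 0.847), 1.16-fold (1.02 to 1.32) and 0.605-fold (0.517 to 0.707), and Fosb at 1.15-fold (0.959 to 1.39), 1.46-fold (1.22 to 1.74) and 0.798-fold (0.653 to 0.974).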
